A study of Mus musculus with 4 samples.

Results

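The names miR-3470 and miR-3473 belong to small RNAs related to SINEs, short interspersed repeats that are spread through the mouse genome. The deposited tables listed 603 miRNA names, and the 8 that start with mmu-miR-3470 or mmu-miR-3473 were taken, which are mmu-miR-3470a, mmu-miR-3470b, mmu-miR-3473a, mmu-miR-3473b, mmu-miR-3473e, mmu-miR-3473f, mmu-miR-3473g and mmu-miR-3473h-5p. The members were chosen by name and not by a measured value, though with earlier results of these data known. Each had its own set of reads among the 8. Small RNA was sequenced from exosomes, vesicles released into the medium by BV2 cells, an immortalized mouse microglial line labelled wild type. The 2 control libraries came from cells held at 37 °C for 2 h. The 2 HS (heatstroke) libraries came from cells held at 42 °C for 2 h and rewarmed at 37 °C for 12 h, as the design text of the series has it. Another passage of the study gives a shorter time between heating and the harvest of exosomes, so this time is uncertain. The labels do not say whether the 2 libraries of a group came from separate cultures, so p-values measure the spread between these libraries, which may be technical.

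SINEs are transcribed by RNA polymerase III, and heat shock is known to raise the RNA of the B1 and B2 families in mouse cells. B2 RNA is known to bind RNA polymerase II and to repress transcription during heat shock. The miR-3470 names carry B1-like sequence and the miR-3473 names B2-like sequence, and a small RNA with such a sequence can come from many copies of the repeat. The comparison of HS with control asks here whether exosomes of heated cells held more or fewer reads of these names.

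RefSeq held a mature sequence for 7 of the 8 names on GRCm38.p6, and these are shown because they tell how far reads of one name can be told from those of another. They are written 5′ to 3′ with the seed, bases 2 to 8, in capitals. The seed is the part of a miRNA that pairs with its targets.
miR-3470b: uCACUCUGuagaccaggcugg
miR-3473a: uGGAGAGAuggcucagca
miR-3473b: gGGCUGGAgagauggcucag
miR-3473e: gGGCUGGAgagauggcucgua
miR-3473f: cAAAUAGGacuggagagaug
miR-3473g: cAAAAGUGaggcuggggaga
miR-3473h-5p: uAGGGGCUggaaaggugacu
Only miR-3473b and miR-3473e shared a seed, and 0 other listed names with a RefSeq mature sequence had the seed of any of the 7.

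Most of the miR-3473 names were variants of one stretch. In the next lines the longest run that each has in common with miR-3473b is in capitals.
miR-3473b: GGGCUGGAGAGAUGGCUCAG
miR-3473e: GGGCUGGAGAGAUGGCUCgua
miR-3473a: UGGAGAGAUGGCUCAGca
miR-3473f: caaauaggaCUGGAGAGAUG
miR-3473h-5p: uagGGGCUGGAaaggugacu
miR-3473g: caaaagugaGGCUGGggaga
The runs were 18 bases in miR-3473e, 16 in miR-3473a, 11 in miR-3473f, 8 in miR-3473h-5p and 6 in miR-3473g. Reads that end within the 18 bases cannot be assigned to miR-3473b or miR-3473e by sequence. MiR-3470b shared 6 bases with miR-3473b, and its longest run with any other of the names was 7 bases, with miR-3473g.

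The precursor hairpin of miR-3473b was an inverted repeat of this stretch, with both copies in capitals here.
Mir3473b: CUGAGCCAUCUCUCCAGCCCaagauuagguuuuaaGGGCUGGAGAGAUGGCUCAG
It lies on the plus strand at chr10:41670739-41670793 of GRCm38.p6. Its right arm is the mature miR-3473b, and its left arm is the exact reverse complement of all 20 bases. The hairpin of miR-3473f, on the minus strand at chr1:106546496-106546631, held the same 20-base reverse complement in one arm and 17 bases of the forward run in the other.
Mir3473f: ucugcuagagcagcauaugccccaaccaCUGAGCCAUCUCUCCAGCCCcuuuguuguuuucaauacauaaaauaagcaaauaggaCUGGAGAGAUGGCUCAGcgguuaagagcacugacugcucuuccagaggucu
The hairpins of miR-3473a and miR-3473e held 18 bases of the forward run each.

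By GENCODE M21, the annotation of the same build, each of the 7 mature sequences with a locus lay in an intron of a protein-coding gene. MiR-3473b, at chr10:41670774-41670793 on the plus strand, lay in Ccdc162, which runs on the minus strand. MiR-3470b, at chr16:44013885-44013905 on the plus strand, lay in Gramd1c, also on the opposite strand. The other 5 ran on the same strand as the host gene: miR-3473a in Syap1 at chrX:162874920-162874937, miR-3473e in Rbks at chr5:31667296-31667316, miR-3473f in Bcl2 at chr1:106546536-106546555, miR-3473g in Sppl2a at chr2:126902290-126902309 and miR-3473h-5p in Gm43191 at chr3:116667598-116667617. Bcl2 encodes an inhibitor of apoptosis. MiR-3473e and miR-3473f also lay in an intron of a second gene on the plus strand, Gm43809 and D630008O14Rik.

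Exact copies of a mature sequence were counted in the 141767 transcripts of GENCODE M21, on either strand, with each of the 55450 genes counted once. MiR-3470b was found in 1068 genes, miR-3473b in 744 and miR-3473a in 284. In each case both orientations were found, with 591 genes for miR-3470b in the sense of the transcript and 504 in antisense, 360 and 393 for miR-3473b, and 148 and 136 for miR-3473a. The genes with miR-3473b and those with miR-3473a overlapped by 165, which is 22.2% of the former and 58.1% of the latter. The 18-base run common to miR-3473b and miR-3473e was in 845 genes.

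**Figure D1:**
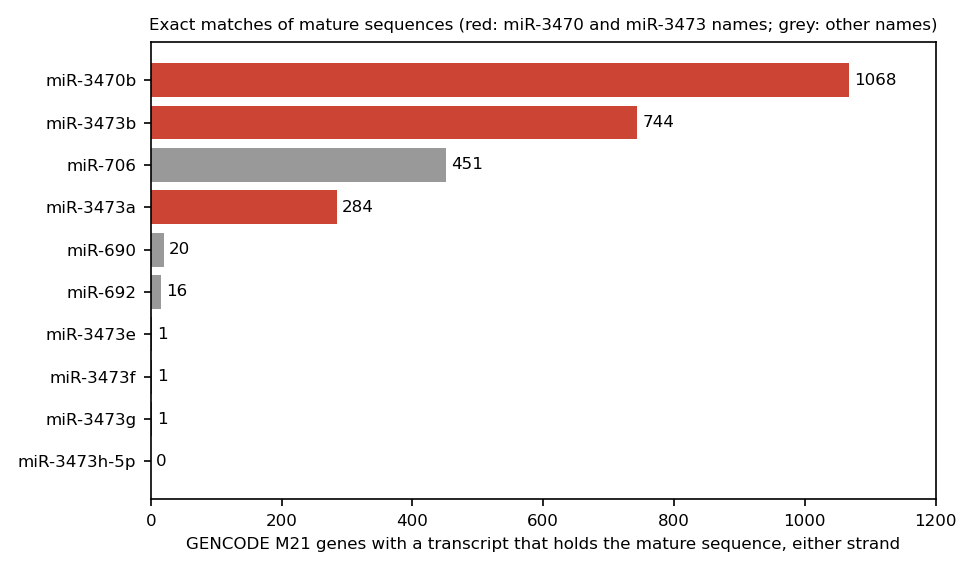
Number of GENCODE M21 genes with a transcript that holds the mature sequence exactly, on either strand (x axis), for the 7 names with a RefSeq sequence (red) and for the 3 other listed names with the highest counts (grey). MiR-3470b, miR-3473b and miR-3473a reach 1068, 744 and 284 genes, while miR-3473e, miR-3473f, miR-3473g and miR-3473h-5p have at most 1.

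Of the 490 other listed names with a RefSeq mature sequence, 1 was found in at least 100 genes, and their median was 1 gene. The exception was miR-706, in 451 genes, which had 0 and 2 control reads against 0 and 4 HS reads. The next was miR-690, in 20 genes. MiR-3473e, miR-3473f and miR-3473g were each found in 1 gene, that of their own precursor, and miR-3473h-5p in 0. These counts leave out introns and the space between genes, and they say nothing of how the authors' mapping divided reads among copies.

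The deposited values were reads over a library's size factor, and are called normalized counts here. The reads behind them were recovered as whole numbers. Reads on listed names totalled 42091 in HS replicate 1 and between 96516 and 121503 in the other libraries, and HS replicate 1 held reads of 228 names against 420 to 444. A name with 0 reads could still hold up to 3 reads, which is 7.25 normalized counts in HS replicate 1 and 1.99 to 2.51 in the others (counting error only, as PCR copies are counted separately). Over the tested names HS replicate 1 also had the lowest Spearman correlations with the other libraries, 0.60 to 0.68 against 0.79 to 0.81 among those. Of the microglial and myeloid markers, 7 of 7 were listed, with summed normalized counts of 5470 and 2439 under control conditions against 1714 and 2873 under HS. In the order control replicates 1 and 2 and HS replicates 1 and 2, the myeloid miR-142a-5p had 171, 190, 79.8 and 165 normalized counts, miR-155-5p had 147, 127, 62.9 and 123, and miR-146a-5p had 1218, 1356, 1289 and 1766. MiR-21a-5p, the largest part of the sum in control replicate 1, had 3900, 762, 276 and 816. The low ones were miR-142a-3p (14.2, 2.03, 0 and 1.99), miR-150-5p (15.0, 0, 0 and 0.664) and miR-223-3p (4.18, 1.36, 7.25 and 0). The 6 stromal, epithelial and endothelial markers summed to 3003 and 1171 normalized counts under control conditions, but to 16.9 in HS replicate 1, with 798 in HS replicate 2. In HS replicate 1, miR-199a-3p, miR-145a-5p and miR-200b-3p were at 0, miR-143-3p at 12.1 and miR-126a-3p at 2.42. MiR-214-3p was low throughout, with 2.51, 7.46, 2.42 and 1.99, and was not lowest in HS replicate 1. The serum, red cell and liver markers (4 of 4 listed) summed to 76.9, 192, 331 and 186, and the neuronal ones (2 of 3 listed) to 2199, 3034, 3755 and 2120. Of the former, miR-122-5p had 22.6, 119, 232 and 137, miR-451a 37.6, 49.5, 55.6 and 33.8, miR-486a-5p 15.0, 24.4, 43.5 and 15.9, and miR-144-3p 1.67, 0, 0 and 0. The neuronal sum was mostly miR-128-3p, with 2119, 2906, 3734 and 2044. MiR-9-5p went the other way in HS replicate 1, with 80.2, 128, 21.8 and 75.6. The part of these differences in the values below was not tested.

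The 8 names together took a larger share of the listed reads in both HS libraries than in both control libraries. Their reads were 325 in control replicate 1, or 0.337% of the listed reads (95% Wilson interval 0.302% to 0.375%), and 266 in control replicate 2, or 0.219% (0.194% to 0.247%). They were 357 in HS replicate 1, or 0.848% (0.765% to 0.940%), and 738 in HS replicate 2, or 0.648% (0.603% to 0.696%). The intervals of the HS libraries lay above those of the control libraries, and they cover counting error only. In normalized counts the sum was 226 ± 64.6 in the control group and 676 ± 264 in the HS group (SD, n = 2 each), a ratio of 2.99, which was 2.17 without HS replicate 1 and 3.82 without HS replicate 2. MiR-3473b and miR-3473e made up 88.2% to 95.7% of these reads in each library.

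**Figure D2:**
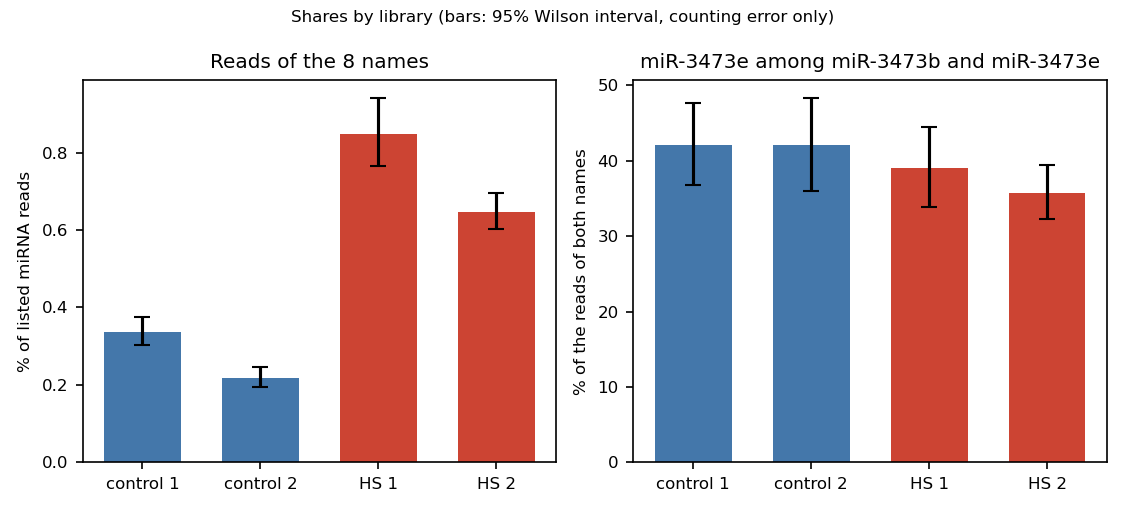
Left, reads of the 8 names as a percentage of the listed miRNA reads in each library. Right, reads of miR-3473e as a percentage of the reads of miR-3473b and miR-3473e. Error bars are 95% Wilson intervals for counting error. The left shares are 0.337% and 0.219% for control and 0.848% and 0.648% for HS, and the right shares lie between 35.7% and 42.1%.

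The 6 names other than miR-3473b and miR-3473e were read 14 and 21 times in the control libraries and 42 and 55 times in the HS libraries. Their shares of the listed reads were 0.0145% (95% Wilson interval 0.00864% to 0.0243%) and 0.0173% (0.0113% to 0.0264%) in the control libraries, and 0.0998% (0.0738% to 0.135%) and 0.0483% (0.0371% to 0.0628%) in the HS libraries. The sum was thus higher in both HS libraries also without the 2 abundant names, but different names, miR-3470a aside, carried it in each. In HS replicate 1 it came from miR-3473g, miR-3470a and miR-3473h-5p, with 17, 14 and 10 of the 42 reads. In HS replicate 2 it came from miR-3473a, miR-3470b and miR-3470a, with 27, 14 and 11 of the 55 reads. MiR-3470a, miR-3473g and miR-3473h-5p reached the minimum of 10 reads set for the tests through their HS reads alone. Of the rest, miR-3473a and miR-3470b had 0 reads in HS replicate 1 and miR-3473f had 1. The higher sum in HS replicate 1 thus rested on names that passed through their HS reads alone.

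**Figure D3:**
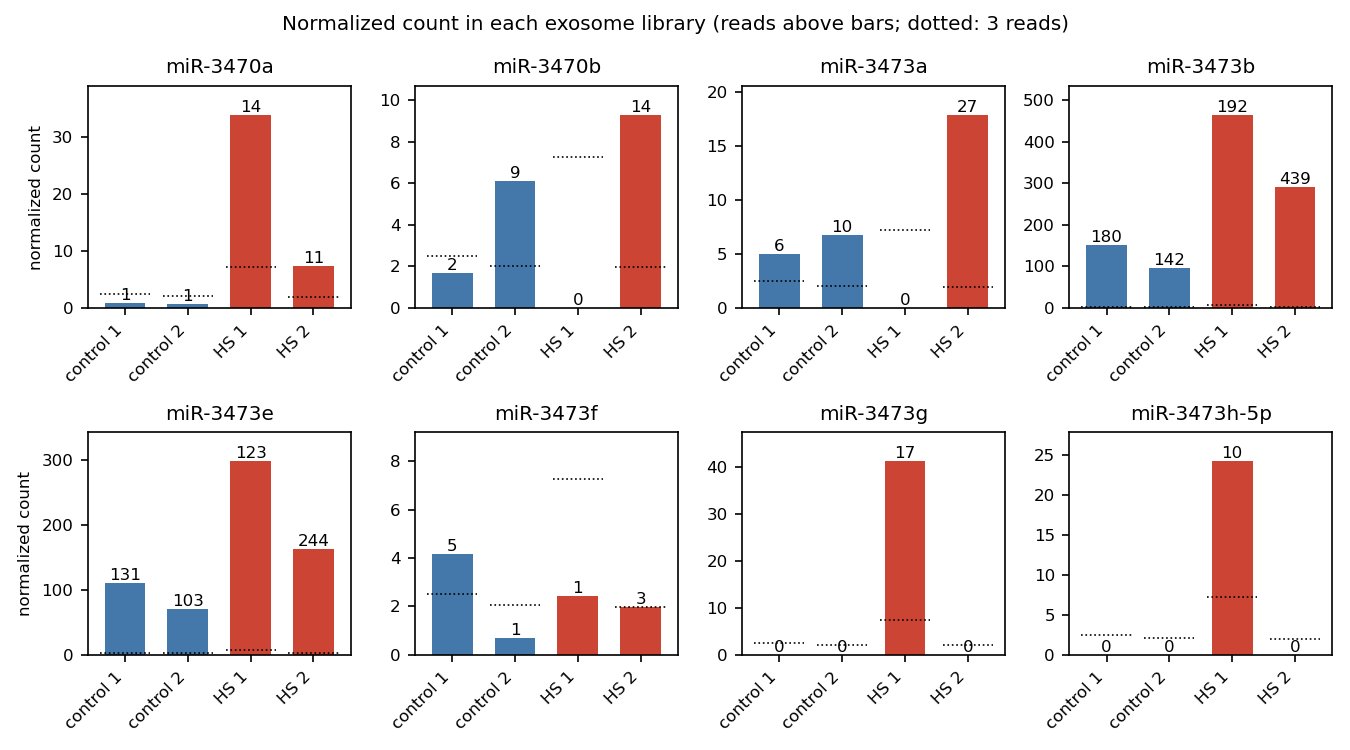
Normalized count (y axis, a scale of its own in each panel) of the 8 names in the control (blue) and HS (red) libraries, with the number of reads above each bar and a dotted line at the value of 3 reads. MiR-3470a, miR-3473b and miR-3473e were higher in both HS libraries than in both control libraries, and miR-3473g and miR-3473h-5p were read in HS replicate 1 alone.

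MiR-3473b was the most abundant of the names. The control libraries held 180 and 142 of its reads, and HS replicates 1 and 2 held 192 and 439, which are 150, 96.2, 464 and 291 normalized counts in the same order. Both HS libraries lay above both control libraries, and among the 603 names its rank was 62 and 79 under control conditions and 31 and 43 under HS. The group means were 123 ± 38.3 and 378 ± 122 normalized counts (SD, n = 2), a ratio of 3.06, which was 2.36 without HS replicate 1 and 3.76 without HS replicate 2. On the log2 scale the difference was 1.60 (standard error, SE, of 0.78, limma adjusted p = 0.617). It did not meet the study's criterion, which asks for over 2-fold and an unadjusted p under 0.05, in limma (unadjusted p = 0.103). The criterion was met with edgeR's quasi-likelihood test (0.0359), DESeq2's Wald test (0.0200), limma-voom (0.0324), limma with a mean-variance trend (0.0297) and a pseudocount of 5 (0.0440), and the adjusted p over all settings was between 0.177 and 0.882.

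MiR-3473e, which has the seed of miR-3473b, was the second most read of the 8 in every library. It had 131 and 103 control reads against 123 and 244 HS reads, or 110, 69.8, 297 and 162 normalized counts. The lowest HS value was above the highest control value. The group means were 89.7 ± 28.1 and 230 ± 95.8 normalized counts (SD, n = 2), a ratio of 2.56, with 1.81 when HS replicate 1 was left out. Its log2 fold change was 1.32 (SE 0.80, limma adjusted p = 0.621), and it did not meet the criterion under any setting run. MiR-3473e made up 42.1% of the reads of both names in control replicate 1 (95% Wilson interval 36.8% to 47.7%), 42.0% in control replicate 2 (36.0% to 48.3%), 39.0% in HS replicate 1 (33.8% to 44.5%) and 35.7% in HS replicate 2 (32.2% to 39.4%). The 4 intervals overlapped.

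MiR-3470a, a B1 name, was at the limit of detection in the control libraries. It had 1 read in each control library and 14 and 11 reads in HS replicates 1 and 2, or 0.836, 0.678, 33.9 and 7.30 normalized counts. Both HS libraries lay above both control libraries, and HS replicate 1 above HS replicate 2. With the reads of each group pooled and divided by the summed size factors, the ratio of HS to control was 17.4 (95% exact interval 4.34 to 151, counting error only). It was 9.75 (2.13 to 90.5) from HS replicate 2 alone and 45.2 (10.4 to 410) from HS replicate 1 alone. The log2 fold change was 3.28 (SE 1.0, limma adjusted p = 0.516), which ranked 4 of the 376 names tested. It was the only one of the 8 to meet the study's criterion upward in limma (unadjusted p = 0.0275), which 1.68% of all distinct sets of reads tested did. MiR-3470a reached the read minimum of the test through its HS reads alone. The criterion was no longer met without control replicate 1 (0.163), without control replicate 2 (0.172), with edgeR's quasi-likelihood test (0.0703), limma-voom (0.0584) or the mean-variance trend (0.0561). The adjusted p lay between 0.102 and 0.882 over the settings.

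MiR-3473g and miR-3473h-5p were read in 1 library. MiR-3473g had 17 reads in HS replicate 1, or 41.1 normalized counts, and 0 reads in HS replicate 2 and in both control libraries. MiR-3473h-5p had 10 reads in HS replicate 1, or 24.2 normalized counts, and 0 reads elsewhere. At the level of HS replicate 1, HS replicate 2 would have held 62.0 reads of miR-3473g and 36.4 of miR-3473h-5p, and its 0 reads allow up to 3. With each control library set at its 3-read limit, the HS group means were 9.05-fold and 5.32-fold higher. These folds leave out the counting error of the 17 and 10 HS reads. They rest on HS replicate 1, and with it left out there was no fold to give. Their log2 fold changes were 2.70 (SE 1.97) and 2.33 (SE 1.74), each with an adjusted p of 0.621 from limma. DESeq2's Wald test put miR-3473g past the criterion (log2 fold change 7.20, unadjusted p = 0.0319, adjusted p = 0.554). Without HS replicate 2, the library that held all the reads is the whole HS group, and the log2 fold changes were 5.40 and 4.65. The spread of a group of 1 library cannot be measured, so these values are a description. Both names passed the read minimum of the test through HS replicate 1 alone, and 5 names in all had at least 10 reads in HS replicate 1 and 0 in the other 3.

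MiR-3470b and miR-3473a showed the opposite pattern within the HS group. MiR-3470b had 2 and 9 control reads, with 0 in HS replicate 1 but 14 in HS replicate 2, or 1.67, 6.10, 0 and 9.29 normalized counts. MiR-3473a had 6 and 10 control reads, with 0 in HS replicate 1 but 27 in HS replicate 2, or 5.02, 6.78, 0 and 17.9 normalized counts. For both, HS replicate 2 was the highest library and HS replicate 1 the lowest, so the groups overlapped. At the level of HS replicate 2, HS replicate 1 would have held 3.84 reads of miR-3470b and 7.41 of miR-3473a, against the limit of 3, so the absence of miR-3470b was at the edge of what this depth can show. The log2 fold changes in limma were -0.44 (SE 1.43, adjusted p = 0.897) for miR-3470b and -0.65 (SE 1.61, adjusted p = 0.878) for miR-3473a. Both were above 0 without HS replicate 1, at 1.24 and 1.47, and in the edgeR and DESeq2 tests, and miR-3470b also in limma-voom, so no direction can be given. Without HS replicate 2 they were -2.12 for miR-3470b and -2.77 for miR-3473a, beside a median of -1.34 over all sets tested.

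MiR-3473f had few reads throughout, with 5 and 1 control reads against 1 and 3 HS reads, or 4.18, 0.678, 2.42 and 1.99 normalized counts. The HS values lay between the control values. Its log2 fold change was 0.12 (SE 0.90, limma adjusted p = 0.971) and it was below 0 in the edgeR and DESeq2 tests, with a pseudocount of 5 and without control replicate 2.

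All 8 names had at least 10 reads over the 4 libraries and were tested, with miR-3473f and miR-3473h-5p at exactly 10. Beside the 1 name of 8 that met the criterion upward, 1.68% of the 357 distinct sets of reads tested met it upward. That name, miR-3470a, reached the read minimum through its HS reads alone. The criterion was met downward by 5.88% of the sets, and by 0 of the 8 names. In counts, 6 sets met it upward and 21 downward in limma, against 8 and 16 with TMM scaling and 8 and 13 with upper quartile scaling. The excess of downward calls was absent from the count-based tests, with 8 upward and 8 downward in edgeR's quasi-likelihood test, 9 and 10 in its exact test, 12 and 11 in DESeq2 and 6 and 6 in limma-voom. Both HS libraries lay above both control libraries for 3 of the 8 names, miR-3470a, miR-3473b and miR-3473e, and for 12.6% of all sets tested. MiR-3473b and miR-3473e share a run of 18 bases, so they may not be separate observations. Both lay below for 0 of the 8 names and for 31.4% of all sets. The smallest p that an exact permutation test can reach with 2 libraries per group is 0.333. The median log2 fold change was 1.46 over the 8 names and -0.62 over the 357 sets, and 6 of the 8 names were above 0 against 35.0% of the sets. These values over the 8 names lean on the read minimum, since miR-3470a, miR-3473g and miR-3473h-5p reached it through their HS reads alone. The other 5 names had a median of 0.12, with 3 of 5 above 0, and the criterion was not met by any of them in limma. Of the 357 sets, 32 reached the minimum through HS alone and 80 through control alone, and the other 245 had a median of -0.34, with 37.1% above 0. The median of all sets depended on the scaling, at -0.59 with TMM, -0.31 with the upper quartile and -0.68 with the total of listed reads. It depended more on the HS libraries, at -0.12 without HS replicate 1 and -1.34 without HS replicate 2. By adjusted p, 0 of the 376 names were under 0.05 in limma and 31 had an unadjusted p under 0.05, and edgeR, DESeq2 and limma-voom also gave 0 by adjusted p.

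**Figure D4:**
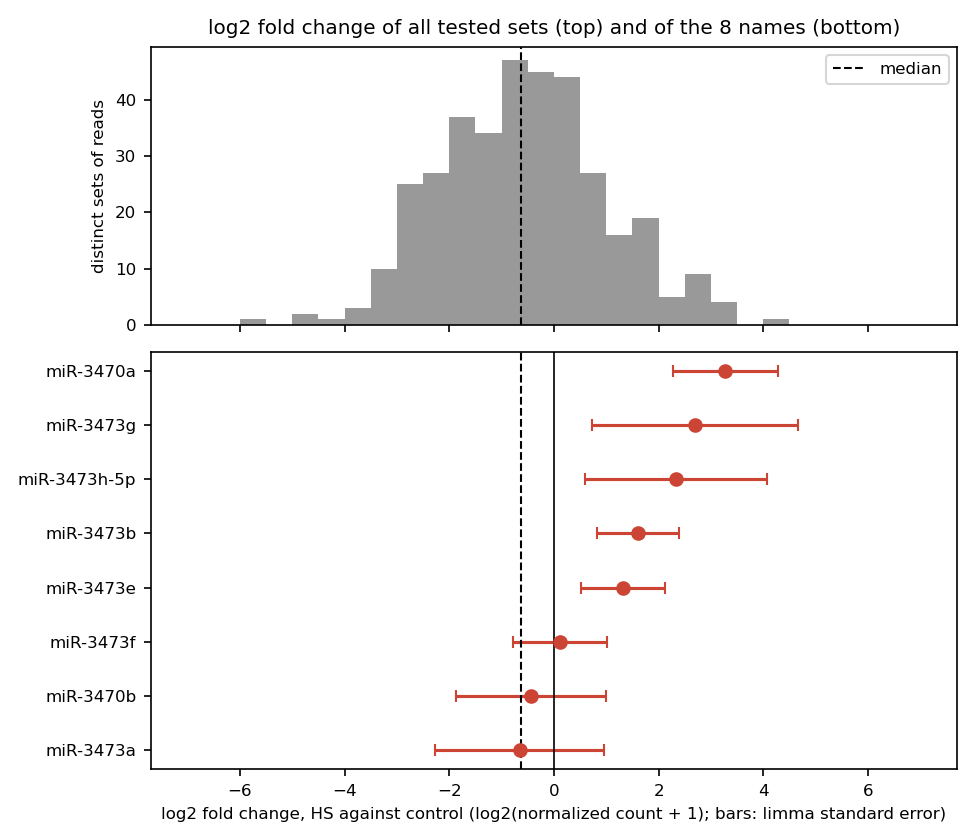
Top, number of distinct sets of reads (y axis) by log2 fold change of HS against control for all 357 tested sets, with the median of -0.62 as a dashed line. Bottom, the log2 fold change of the 8 names with its limma standard error (SE). MiR-3470a, miR-3473g, miR-3473h-5p, miR-3473b and miR-3473e lie from 3.28 to 1.32, and miR-3473f, miR-3470b and miR-3473a from 0.12 to -0.65, with errors that cross 0. An error bar that does not cross 0 is not a test. Of these names, miR-3470a alone had an unadjusted p under 0.05 in limma.

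The names with the most similar values were found by the Euclidean distance over the 4 libraries on log2(normalized count + 1). For miR-3470a they were miR-467c-5p (distance 1.32), with 0, 1, 7 and 9 reads in the order of the libraries above, miR-6988-3p (1.53), with 3, 0, 9 and 6, and miR-1934-3p (1.67), with 0, 0, 12 and 4. For miR-3473b the closest was miR-676-3p (1.30), with 138, 293, 146 and 298 reads, and for miR-3473e it was miR-501-3p (1.01), with 125, 179, 82 and 283. For miR-3473h-5p it was miR-7059-5p, which had the same reads in every library (distance 0), followed by miR-5135 (0.253) with 12 reads in HS replicate 1, and for miR-3473g it was miR-7013-3p (0.0853) with 16 reads there. For miR-3473a and miR-3470b the closest were miR-191-3p (0.733), with 10, 12, 0 and 22 reads, and miR-203-3p (0.730), with 3, 11, 0 and 9. For miR-3473f, miR-3969 was closest (1.79), with 6, 1, 0 and 3 reads. Each distance rests on 4 libraries, so it is a description.

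Other listed miRNAs were searched for stretches in common with these precursors. Of the 457 other listed names with a RefSeq hairpin, 8 had a hairpin with at least 12 bases in common, on either strand, with a hairpin of a miR-3473 name. Of these 8, 5 had enough reads to be tested, with 1 that met the criterion upward, 0 downward and a median log2 fold change of 0.15, beside 1.68% upward, 5.88% downward and a median of -0.62 over all sets. The one was miR-1934-3p, which reached the read minimum through its HS reads alone and whose hairpin had a run of 19 bases in common. It had 0 reads in each control library, and 12 and 4 under HS (unadjusted p = 0.0499, adjusted p = 0.585 from limma). The other arm of that hairpin, miR-1934-5p, had 18 and 23 control reads against 7 and 26 HS reads, or 15.0, 15.6, 16.9 and 17.3 normalized counts, with a log2 fold change of 0.15 (SE 0.71, limma adjusted p = 0.941). MiR-690, with 20 bases in common, had 3 and 16 control reads against 13 and 19 HS reads, or 2.51, 10.8, 31.4 and 12.6 normalized counts (log2 fold change 1.70, SE 1.02, limma adjusted p = 0.621). All 3 were higher in both HS libraries, by little in miR-1934-5p and, in HS replicate 2, in miR-690. This was so for 3 of the 5 names tested and for 12.6% of all sets. The longest run in the hairpins of the other 5 of the 8 names was 12 or 13 bases. Among them miR-152-3p had 74 and 22 control reads against 0 and 31 HS reads. MiR-1947-5p, with 8 and 0 control reads against 0 and 12, also reached the read minimum through its HS reads alone.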

How the data were processed

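Small RNA of exosomes was sequenced in 4 libraries, 2 control and 2 HS. The authors trimmed adapters, dropped reads that were short or of low quality, aligned with bowtie and counted miRNAs; the genome build and miRBase release are not given in the sources used here. The signal values deposited by the authors carry the heading RPKM, yet every nonzero value (100%, tolerance 0.001 reads) was a multiple of 1 step per library, and the steps are the inverse of DESeq2's size factors (0.414 to 1.51). Reads were recovered by dividing by the step. The groups were compared with limma 3.58.1 (R 4.3.3) on log2(normalized count + 1) over all names with at least 10 reads in sum, with Benjamini-Hochberg adjustment. On this scale fold changes of low names are understated. EdgeR 4.0.16 and DESeq2 1.42.0 were run on recovered reads as alternatives, with other pseudocounts, filters, scalings and left-out libraries. The limma script was tested on simulated data.

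Names with the same reads in every library were counted once in counts over all names. Named are all members, the nearest names by distance, and names with a related hairpin or the same seed. Sequences and coordinates come from RefSeq on GRCm38.p6, annotation from GENCODE M21 on GRCm38, read with Python 3.11.15. Members, lists and tests were chosen with earlier results of these data known. Matches in transcripts, and names that reached the read minimum through one group alone, were counted after the values had been seen.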

Additional observations from a re-analysis of the deposited data

How the results depend on the processing

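The ratio of the summed reads of the 8 names stayed above 1 with every scaling and left-out library run, and miR-3473b and miR-3473e kept their direction throughout. The number of the 8 names that met the criterion was 1 in limma, 3 with DESeq2's Wald test, 2 with a pseudocount of 5, 0 with the filterByExpr filter, and between 0 and 4 when a library was left out. Over all 357 tested sets it was 27, and 23 with DESeq2's Wald test, 16 with edgeR's quasi-likelihood test, 12 with limma-voom, 16 with the mean-variance trend, 11 with a pseudocount of 5, 10 with a minimum of 20 reads, 7 with filterByExpr, 14 with the replicate block, and 21 to 106 when a library was left out, the highest without HS replicate 2. MiR-3470a no longer met the criterion with the quasi-likelihood test (log2 fold change 4.56), limma-voom (3.47) and the trend (3.28), and ranged from 2.24 to 4.31 with a library left out. MiR-3473b met it with the quasi-likelihood test and DESeq2's Wald test (1.61 in both), limma-voom (1.55), the trend (1.60) and a pseudocount of 5 (1.57). MiR-3473g met it with DESeq2's Wald test (7.20). Directions turned for miR-3470b with the quasi-likelihood test (0.37), the exact test (0.37), DESeq2 (0.32) and limma-voom (0.39), for miR-3473a with the first 3 of these (0.67, 0.67 and 0.66), and for miR-3473f with the same 3 (-0.14 in each) and with a pseudocount of 5 (-0.0036). With a library left out, the log2 fold change ranged from -2.12 to 1.24 for miR-3470b, -2.77 to 1.47 for miR-3473a, -0.70 to 0.93 for miR-3473f, 0 to 5.40 for miR-3473g and 0 to 4.65 for miR-3473h-5p, where the lone library of a group is assumed to vary like the others. The minimum of 20 reads left 5 of the 8 names and filterByExpr left 2, miR-3473b and miR-3473e. The cause of these changes was not tested. The deviations of same-numbered libraries had a correlation of -0.0973. With 2 libraries per group the deviations mirror each other, so this value cannot show whether same-numbered libraries share more than a number. With the replicate block miR-3470a still met the criterion (3.28). HS replicate 1, with the fewest reads, limits what can be seen of names under 10 reads.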

Other observations

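The 24 other listed names with a 4-digit number that starts with 3 were counted beside the miR-3470 and miR-3473 names. Of these, 11 had enough reads to be tested, and 1 met the criterion upward, miR-3064-5p, with 0 reads in each control library, and 6 and 4 under HS (unadjusted p = 0.0403, adjusted p = 0.541 from limma). It reached the read minimum through its HS reads alone, and 1.68% of all sets tested met the criterion upward. The median log2 fold change of the 11 was 0.42 (-0.62 over all sets), with 6 of 11 above 0 (35.0% of all sets). Both HS libraries lay above both control libraries in 3 of 11 (12.6% of all sets), miR-3064-5p among them. These values lean on the read minimum, which miR-3084-5p and miR-3074-5p also reached through their HS reads alone. MiR-3103-3p and miR-3060-3p reached it through their control reads alone. MiR-3474, the next number after the miR-3473 names, had 16 and 25 control reads against 52 and 36 HS reads, or 13.4, 16.9, 126 and 23.9 normalized counts (log2 fold change 1.81, SE 1.07, limma adjusted p = 0.621). The values of HS replicate 1 were the highest of the 4 for it, as for miR-3470a, miR-3473b, miR-3473e, miR-3473g and miR-3473h-5p.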
